A study of Homo sapiens with 3 samples.

Results

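The genes of the NRF2 pathway and of antioxidant defence were examined in Huh7 cells, an established human hepatoma line, treated with the plant polyphenol chlorogenic acid (CA). They comprised 44 genes picked by name for their known roles in glutathione, thioredoxin, peroxide and superoxide handling. Of the 44 genes, 42 had at least 1 probe on the array, out of 19740 genes that could be named on it, and PRDX2 and AKR1C2 had no probe matched to their symbol. The groups were Huh7 cells left untreated, cells given CA at 50 μM and cells given CA at 100 μM, both for 24 h, and all were grown in the same serum-supplemented medium. A single Agilent array with 1 colour, Cy3, was run for the total RNA of every group. With 1 array per group and 1 cell line, no difference between groups has a replicate check and no test was possible, so that every fold given here describes 3 arrays.

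The transcription factor NRF2, encoded by NFE2L2, is held in the cytoplasm by KEAP1, which directs it to degradation, and is released when oxidants or electrophiles modify KEAP1. In the nucleus it pairs with a small MAF protein and binds the antioxidant response element near its target genes, while BACH1 occupies such elements as a repressor. The targets code for enzymes that make and recycle glutathione, reduce thioredoxin, detoxify quinones and degrade haem, all of which are prominent in hepatocytes, where most drugs are handled. NRF2 itself is regulated mainly as a protein, which an mRNA array does not measure.

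The level of a probe is given as intensity, in arbitrary units of the processed signal, and a log2 ratio is the difference between 2 arrays after each was scaled to its own 75th percentile, which was 1059, 1207 and 1249 units on the untreated, 50 μM CA and 100 μM CA arrays. An unchanged gene therefore had a higher raw intensity on the CA arrays. For probes printed 10 times on each array, the SD of the log2 ratio between spots had a median of 0.064 at 50 μM CA over 806 probes, and it was 0.116 for the dimmest 25% of them and 0.050 for the brightest 25%. This spread covers differences within an array only, not differences between cultures, labelling reactions or arrays.

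Of the gene spots on each array, 70.4% to 71.1% were well above background. On the 100 μM CA array 5.69% of the gene spots lay in areas where otherwise dim probes were bright, and these held 1 of the 10 KEAP1 spots, 1 of the 10 PRDX4 spots and a second probe for AKR1C1. Of 12 hepatocyte and hepatoma markers, 11, 11 and 12 had a spot without an outlier flag on the untreated, 50 μM CA and 100 μM CA arrays. Of these, 10, 11 and 11 were well above background. TF had no such spot on the untreated and 50 μM CA arrays, and HNF4A was not well above background on the untreated and 100 μM CA arrays. The hepatocyte and hepatoma markers gave summed intensities of 405739, 412837 and 408242 units, in the same order of arrays. The sum at 100 μM CA includes TF (13078.5 units), which has no value in the other sums, so they are not over the same genes. Markers of other cell types gave sums of 1083, 1355 and 1164 units for 5 leukocyte genes. For 4 endothelial genes the sums were 799, 1092 and 1045 units. The part of these signals in the ratios was not tested. Within a cell line such as Huh7, a change in every cell and a change in some cells cannot be told apart by these arrays.

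All 42 measured genes were well above background on every array, by 50 of 51 probes, the exception being a second BACH1 probe. By the brightest probe of each gene, 3 of the 42 genes at 50 μM CA were at least 1.5-fold higher than in untreated cells, namely EPHX1, GPX3 and TXNRD2, which is 7.14% of them against 4.15% of 14700 named genes. AKR1C3 was the 1 gene at least 1.5-fold lower, which is 2.38% against 2.17% of all named genes. None was changed 2-fold, where 0.456% of all named genes were higher and 0.517% lower. At 100 μM CA none of the 42 was changed 1.5-fold, against 1.65% of 14640 named genes higher and 1.54% lower, and none was changed 2-fold, against 0.451% and 0.205%. The counts were thus within a few genes of the background at both doses.

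The whole set stayed near the middle of the array. The median log2 ratio of the 42 genes was −0.03 at 50 μM CA and −0.02 at 100 μM CA, beside −0.04 and −0.03 over all named genes. At each dose 18 genes were above 0 and 24 below. The SD across the 42 genes was 0.32 at 50 μM CA and 0.19 at 100 μM CA, against 0.31 and 0.25 across all named genes. The SD over all named genes at 100 μM CA includes ratios of up to 7.43. The median absolute log2 ratio, less moved by such extremes, was 0.115 over the 42 genes and 0.119 over all named genes at 100 μM CA. At 50 μM CA it was 0.185 and 0.179. Both comparisons use the same untreated array, so that a deviation of that array enters both.

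**Figure D1:**
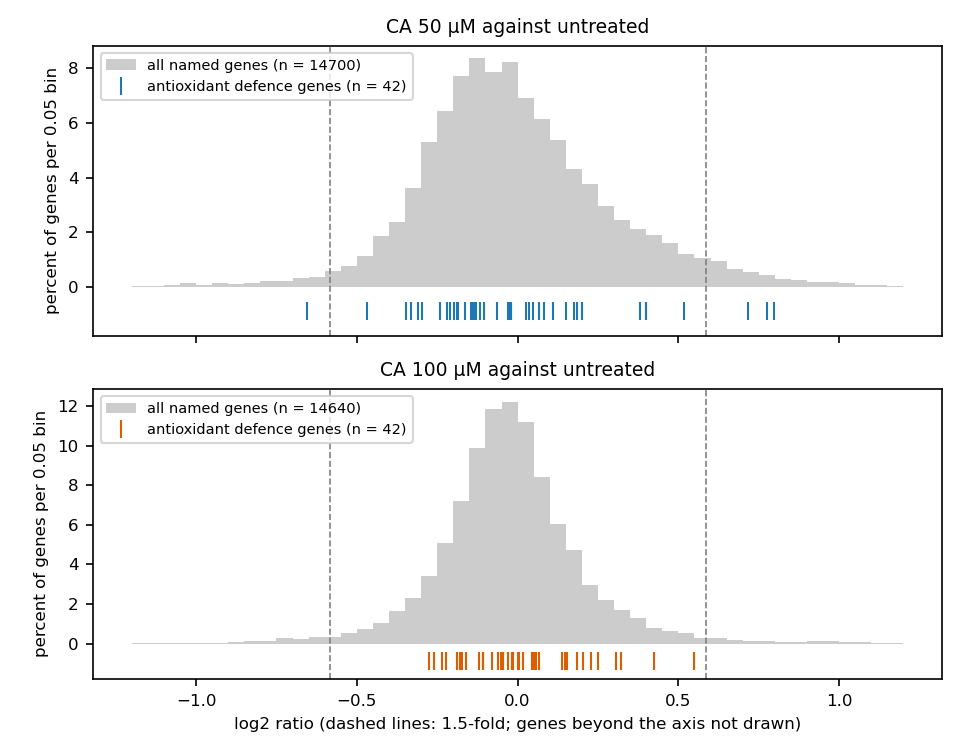
Histograms of the log2 ratio of all named genes (grey, percent of genes per bin of 0.05) at 50 μM CA (upper panel) and 100 μM CA (lower panel), each against untreated, with a tick for each of the 42 antioxidant defence genes and dashed lines at 1.5-fold. The ticks spread over the same range as the bulk of the genes, with 3 beyond the upper line and 1 beyond the lower line at 50 μM CA and none beyond either at 100 μM CA.

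The regulators of the pathway were examined first. NFE2L2, which encodes NRF2, had an intensity of 95.2 in untreated cells, 99.2 at 50 μM CA and 139 at 100 μM CA. Relative to the array, it was lower at 50 μM CA (log2 ratio −0.13) and higher at 100 μM CA (0.31), and this single-spot probe was among the 3 members within the dimmest 25% of the named genes. KEAP1, the inhibitor of NRF2, had an intensity of 1211 in untreated cells, 1588 at 50 μM CA and 1589.9 at 100 μM CA. After scaling, all 10 KEAP1 spots were higher on both CA arrays than at the same place on the untreated array, with a mean log2 ratio of 0.20 (SD 0.069, n = 10 spots) at 50 μM CA and 0.15 (SD 0.107, n = 10 spots) at 100 μM CA, or 0.16 without the spot in the disturbed area. This repetition is of spots and not of cells.

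BACH1, the repressor, had intensities of 2571, 2869.7 and 2789.8 on the untreated, 50 μM CA and 100 μM CA arrays and log2 ratios of −0.03 and −0.12. MAFG and MAFK are small MAF partners of NRF2. The brighter MAFG probe had intensities of 706, 655 and 746 on the untreated, 50 μM CA and 100 μM CA arrays, with log2 ratios of −0.30 and −0.16. The other MAFG probe had intensities of 67.3, 113 and 98.5 and ratios of 0.56 and 0.31, in the opposite direction, so that the direction of MAFG is not settled by these arrays. MAFK had intensities of 477, 575 and 551 and ratios of 0.08 and −0.03.

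**Figure D2:**
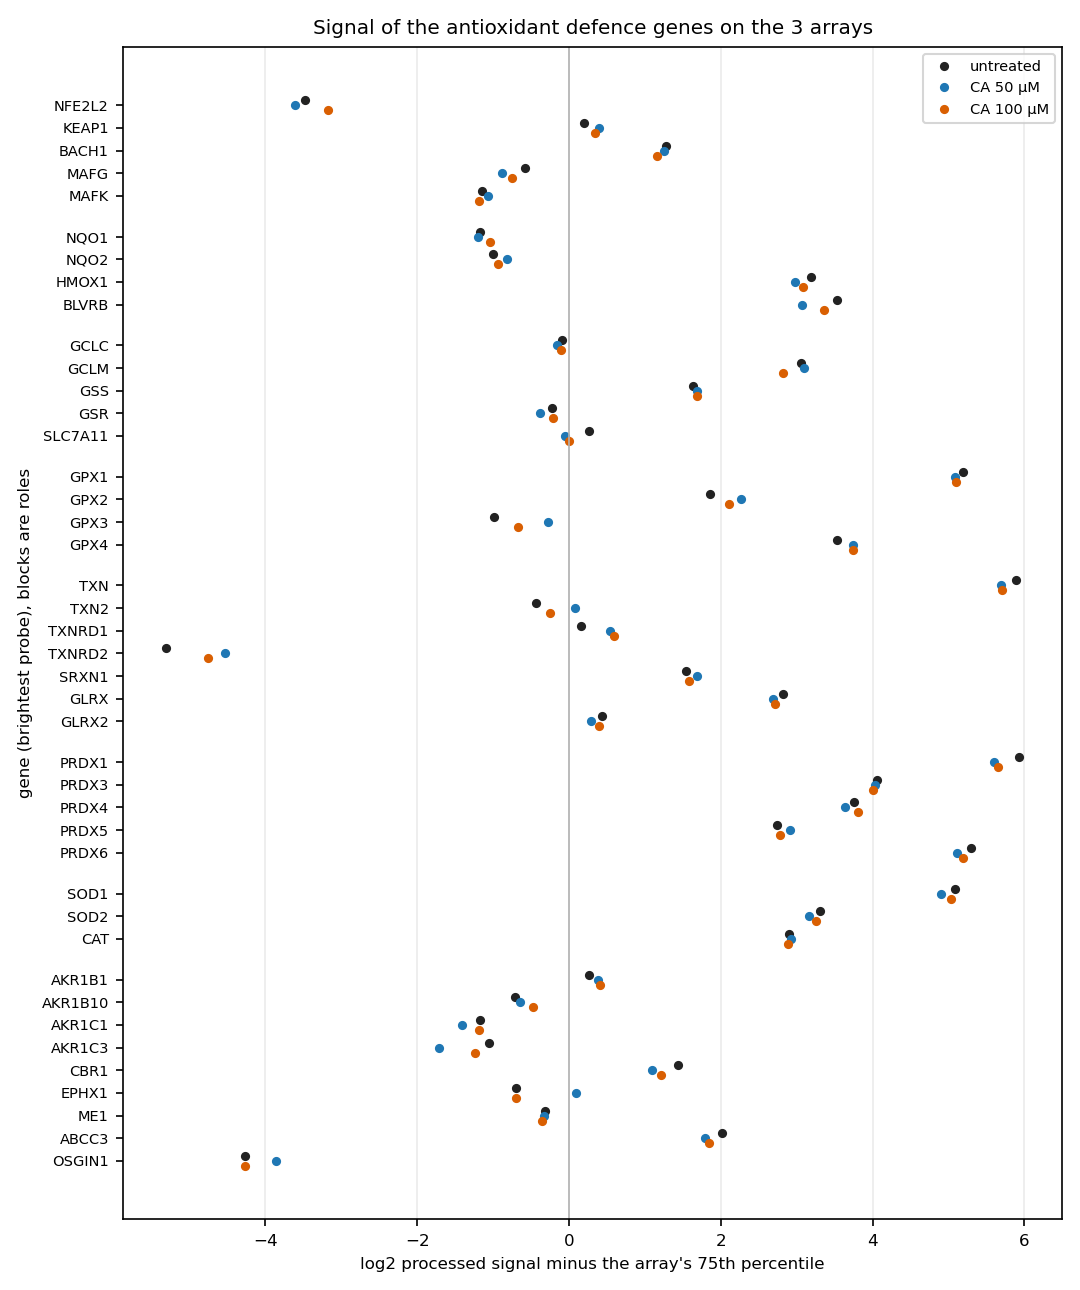
Log2 processed signal minus the 75th percentile of the array (horizontal axis) for the brightest probe of each of the 42 genes, with a point for each of the 3 arrays and genes in blocks by role. Points are to be compared within a row, since probes differ in brightness for the same amount of RNA, and in most rows the 3 arrays lie close together, with wider rows for EPHX1, GPX3, TXNRD2 and AKR1C3.

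Since NRF2 acts through the antioxidant response element, the reference promoter windows of the genes were searched for its core, TGACNNNGC, on both strands, in 300 bases around the first-listed transcription start of each gene (RefSeq, GRCh38.p14). A window was found for 33 of the 44 genes. The core was in 5 of them, 15.2%, against 13.6% of 27305 windows of all genes, and the looser form TGANNNNGC, which includes it, was in 18 (54.5%) against 42.1%. The related letters TGANTCA, an AP-1 type site, were in ME1 and OSGIN1 (6.06% against 7.76%) and overlap the core in ME1. The stretches with the core are shown on the strand of the gene, with the core in capitals, because they allow the ratios of genes that carry these letters to be set side by side. A match is a description of the reference letters and not a site shown to be bound. The GCLM stretch is chr1:93909448-93909472 (minus strand), those of ME1 are chr6:83431172-83431196 and chr6:83431024-83431048 (minus strand), those of TXNRD1 chr12:104215672-104215696 and chr12:104215763-104215787 (plus strand), that of GPX2 chr14:64942851-64942875 (minus strand) and that of CBR1 chr21:36069857-36069881 (plus strand).
GCLM: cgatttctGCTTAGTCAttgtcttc
ME1, first: tcctgccaTGACTCAGCgcttctcg
ME1, second: tgcagtcaGCACCGTCAccccagca
TXNRD1, first: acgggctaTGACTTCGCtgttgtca
TXNRD1, second: gtccttcgGCTCCGTCAgttcccac
GPX2: ctgtttttGCTAAGTCAtcctgggg
CBR1: cgggttctGCAAAGTCAggctagct

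These genes did not move together. TXNRD1 was higher at both doses (log2 ratios of 0.38 at 50 μM CA and 0.42 at 100 μM CA), as was GPX2 (0.40 and 0.25). GCLM had ratios of 0.04 and −0.24 and ME1 of −0.02 and −0.05, and CBR1 was lower at both doses (−0.35 and −0.22). The median of the 5 genes was 0.04 at 50 μM CA and −0.05 at 100 μM CA, beside −0.03 and −0.02 over the 1736 and 1729 measured genes with the core in their window. The 26 measured members that had a window without the core had medians of −0.03 and −0.01. Measured members for which no window was found are in neither group. Letters outside the windows were not searched, so these medians do not separate genes that carry an element from genes that lack one.

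Among the enzymes that detoxify quinones and degrade haem, the most used readouts of NRF2 changed little. NQO1, a quinone reductase, had intensities of 469, 527 and 609 on the untreated, 50 μM CA and 100 μM CA arrays and log2 ratios of −0.02 and 0.14. NQO2, a related quinone reductase, had intensities of 529, 685 and 653 and ratios of 0.18 and 0.07. HMOX1, the inducible haem oxygenase, had intensities of 9673, 9529 and 10599.6. Its ratio was −0.21 (SD 0.051, n = 10 spots) at 50 μM CA. At 100 μM CA it was −0.10 (SD 0.031, n = 8 spots without a flag on both arrays). No HMOX1 spot had a ratio above 0 at either dose. Under cyclic loess the HMOX1 ratios were −0.11 at 50 μM CA and −0.03 at 100 μM CA. These spots lie on the same arrays, so a shift shared by bright probes would enter all of them. BLVRB, which reduces biliverdin and flavins, had intensities of 12268, 10112 and 12834 and ratios of −0.47 and −0.17. Its 50 μM CA value was the lowest of the 42 genes after AKR1C3.

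**Figure D3:**
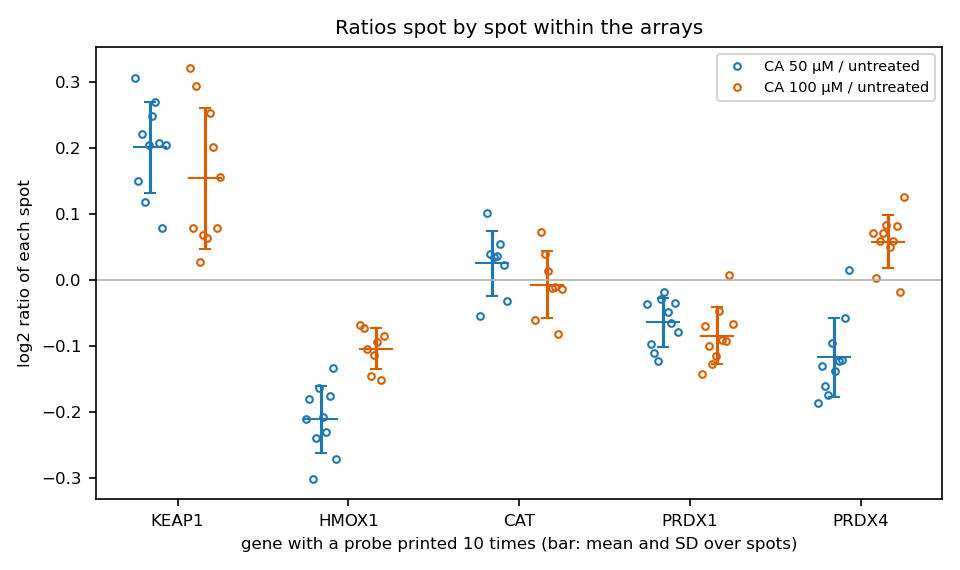
Log2 ratio to the untreated array of each spot (circles) of the 5 genes with a probe printed 10 times per array, at 50 μM CA and 100 μM CA, with the mean and SD over spots as bars. Spots of KEAP1 lie above 0 and those of HMOX1 below 0 at both doses, those of CAT straddle 0, and those of PRDX4 are mostly below 0 at 50 μM CA and mostly above it at 100 μM CA.

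In glutathione synthesis and recycling none of the 5 genes was changed 1.5-fold. GCLC, the catalytic subunit of glutamate-cysteine ligase, which sets the rate of glutathione synthesis, had intensities of 993, 1082 and 1157 and log2 ratios of −0.07 and −0.02. GCLM, its modifier subunit, had intensities of 8819, 10308 and 8832 and ratios of 0.04 and −0.24. GSS, glutathione synthetase, had ratios of 0.05 and 0.04. SLC7A11, the cystine transporter that supplies cysteine, had intensities of 1272, 1169 and 1252 and ratios of −0.31 and −0.26, which were the lowest of this group at both doses. GSR, which reduces oxidised glutathione, had probes that disagreed. Its brighter probe had intensities of 908, 924 and 1083 and ratios of −0.16 and 0.02, and the other had intensities of 588, 988 and 728 and ratios of 0.56 and 0.07. The gap between the GSR probes at 50 μM CA was 0.72 on the log2 scale, and that between the MAFG probes 0.85. These were the 2 of 8 members with a gap of at least 1.5-fold there, against 14.9% of 3266 named genes with several probes above background, and at 100 μM CA there were 0 of 8, against 9.11% of 3237.

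The glutathione peroxidases, selenium- or cysteine-based enzymes that reduce hydrogen peroxide and lipid peroxides, had a median log2 ratio of 0.30 at 50 μM CA and 0.23 at 100 μM CA over 4 genes. GPX3, the plasma glutathione peroxidase, had intensities of 535 in untreated cells, 1001 at 50 μM CA and 788 at 100 μM CA. It was 1.64-fold higher at 50 μM CA (log2 ratio 0.72) and 1.25-fold higher at 100 μM CA (0.32). A second GPX3 probe had intensities of 181, 351 and 349, and was 1.70-fold higher at 50 μM CA (0.77) and 1.63-fold higher at 100 μM CA (0.71). The GPX3 probes thus went the same way at both doses and differed in size at 100 μM CA. GPX2, the gastrointestinal form, had intensities of 3849, 5792 and 5399. GPX4, which reduces lipid hydroperoxides in membranes, had intensities of 12275, 16086 and 16661 and ratios of 0.20 and 0.20. GPX1, the main cytosolic form, had ratios of −0.10 and −0.08 by its brighter probe, with intensities of 38503, 40869 and 42943, but of 0.38 and 0.23 by the other, with intensities of 7355, 10882 and 10169. The sign of the brighter GPX1 probe also turned at both doses under quantile normalization, cyclic loess and the log2 table of the authors.

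In the thioredoxin system the 2 reductases among the 42 genes had positive ratios at both doses. The reductase TXNRD3, which is not among the 42, had log2 ratios of −0.003 at 50 μM CA and 0.07 at 100 μM CA. TXNRD1, the cytosolic thioredoxin reductase, had intensities of 1187 in untreated cells, 1762 at 50 μM CA and 1877 at 100 μM CA. By the brightest probe of each gene, its log2 ratio at 100 μM CA was the highest of the 42 genes after TXNRD2. The second GPX3 probe was higher than both there (0.71). TXNRD2, the mitochondrial thioredoxin reductase, had intensities of 26.8, 52.2 and 46.1. It was 1.71-fold higher at 50 μM CA (log2 ratio 0.77) and 1.46-fold higher at 100 μM CA (0.55), on a dim probe with a single spot. With normexp background correction, run on median spot intensities with an added offset of 50, which by itself shrinks the ratio of a dim probe, the TXNRD2 ratios were 0.16 and 0.03. Which of these steps moved them was not tested.

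TXN2, the mitochondrial thioredoxin, had intensities of 784, 1280.4 and 1051 and log2 ratios of 0.52 and 0.18. TXN, the cytosolic thioredoxin, had intensities of 62805, 62492 and 65013 and ratios of −0.20 and −0.19, whose sign turned under quantile normalization and in the log2 table of the authors. SRXN1, sulfiredoxin, which restores overoxidised peroxiredoxins, had intensities of 3073, 3886 and 3752 and ratios of 0.15 and 0.05. The glutaredoxins GLRX and GLRX2, which remove glutathione from proteins, had ratios of −0.13 and −0.14 at 50 μM CA and of −0.11 and −0.05 at 100 μM CA.

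**Figure D4:**
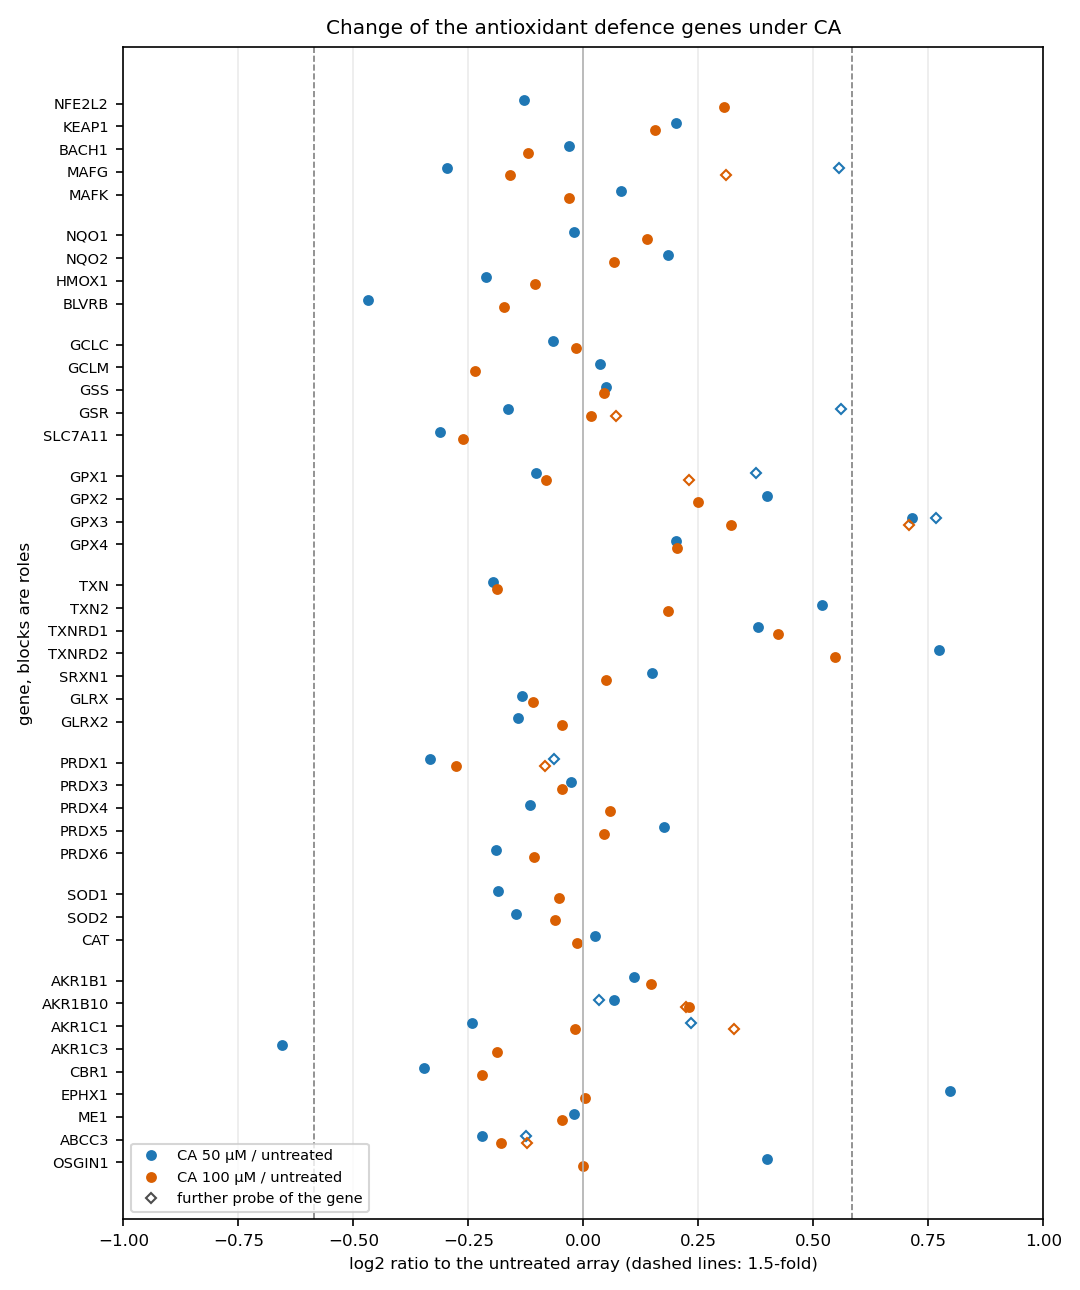
Log2 ratio to the untreated array (horizontal axis) of each of the 42 genes at 50 μM CA and 100 μM CA, by the brightest probe (filled circles) and any further probe above background (open diamonds), with dashed lines at 1.5-fold. EPHX1, GPX3, TXNRD2 and AKR1C3 lie beyond the lines at 50 μM CA, the second probe of GPX3 at both doses, and the probes of GSR, MAFG, GPX1 and AKR1C1 lie on opposite sides of 0 at 50 μM CA.

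The peroxiredoxins, abundant thiol peroxidases, had log2 ratios between −0.33 and 0.18 at 50 μM CA and between −0.28 and 0.06 at 100 μM CA over 5 genes. The brightest PRDX1 probe had intensities of 64653, 58528 and 62983 and ratios of −0.33 and −0.28. The PRDX1 probe printed 10 times had intensities of 43319, 47254 and 48194, and ratios of −0.06 (SD 0.037, n = 10 spots) and −0.08 (SD 0.043, n = 10 spots). Both PRDX1 probes were thus below 0 with scaling at the 75th percentile, but by different amounts. PRDX4, the form of the endoplasmic reticulum, had ratios of −0.12 (SD 0.060, n = 10 spots) and 0.06 (SD 0.041, n = 10 spots), and 0.07 at 100 μM CA without the spot in the disturbed area. PRDX6 had intensities of 41584, 41568 and 45496 and ratios of −0.19 and −0.11, the latter turning positive under quantile normalization, cyclic loess and the log2 table of the authors. PRDX3, of mitochondria, had ratios of −0.03 and −0.05, which turned under the same settings, and PRDX5 had ratios of 0.18 and 0.04.

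SOD1, the cytosolic superoxide dismutase, had intensities of 35816, 35929 and 40735 and log2 ratios of −0.18 and −0.05, and SOD2, the mitochondrial form, had ratios of −0.15 and −0.06. At 100 μM CA the SOD1 sign turned under quantile normalization, cyclic loess and the log2 table of the authors, and the SOD2 sign under the latter 2. CAT, catalase, which breaks down hydrogen peroxide, had ratios of 0.03 (SD 0.049, n = 8 spots) and −0.01 (SD 0.050, n = 8 spots), within the spread between its spots.

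Ratios depended on brightness, and 21 of the 42 members lay within the brightest 25% of the named genes. In that class the median log2 ratio at 50 μM CA was −0.12 over the 21 members and −0.11 over all genes, and at 100 μM CA −0.08 and −0.06. In the next brightest 25%, 13 members had medians of 0.07 and 0.02, beside −0.04 and −0.02 over all genes. HMOX1 (−0.21 and −0.10), TXN (−0.20 and −0.19) and PRDX6 (−0.19 and −0.11) lay below the medians of all genes in the brightest 25% at both doses. SOD1 (−0.18 and −0.05) lay below that median at 50 μM CA only. How far brightness enters the ratios of these genes was not tested.

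**Figure D5:**
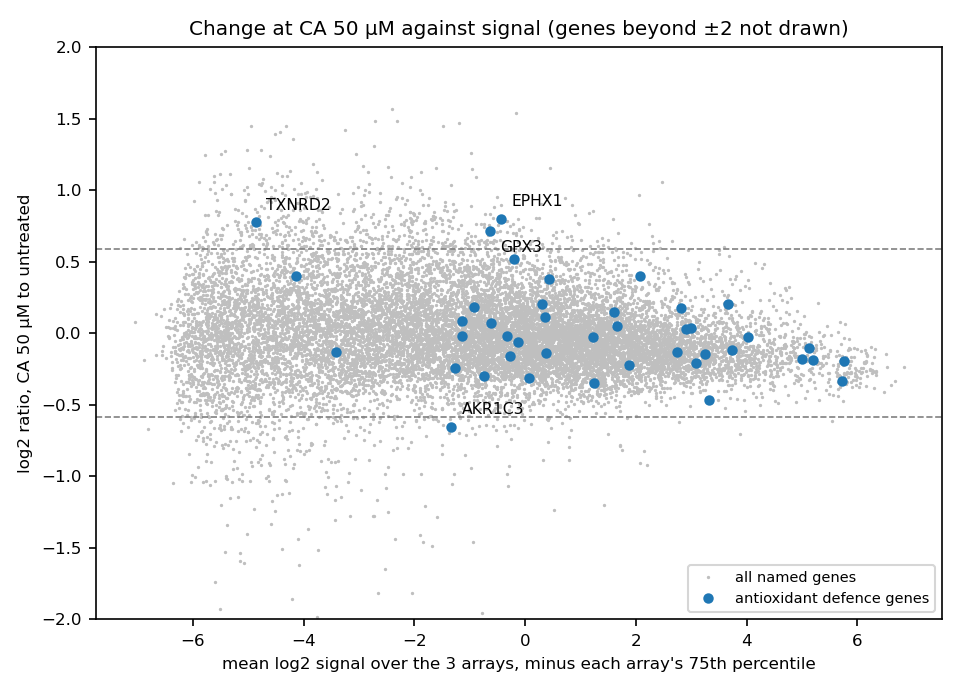
Log2 ratio at 50 μM CA to untreated (vertical axis) against the mean log2 signal over the 3 arrays, relative to the 75th percentile of each array (horizontal axis), for all named genes (grey) and the antioxidant defence genes (blue), with dashed lines at 1.5-fold. The cloud narrows and falls below 0 toward the right, where 21 of the 42 genes lie, and TXNRD2 lies at the dim end, where ratios spread widely.

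Among carbonyl reductases and other targets, EPHX1 and AKR1C3 differed most at 50 μM CA and less at 100 μM CA. EPHX1, microsomal epoxide hydrolase, which opens reactive epoxides, had intensities of 652 in untreated cells, 1292 at 50 μM CA and 771 at 100 μM CA. It was 1.74-fold higher at 50 μM CA (log2 ratio 0.80), the highest ratio of the 42 genes, and level with untreated cells at 100 μM CA (0.00). AKR1C3, an aldo-keto reductase of steroids and prostaglandins, had intensities of 510.0 in untreated cells, 369 at 50 μM CA and 528 at 100 μM CA, and was 1.58-fold lower at 50 μM CA (−0.66) and 1.14-fold lower at 100 μM CA (−0.19). EPHX1 and AKR1C3 were each measured by 1 probe with a single spot per array. At 50 μM CA, EPHX1 and AKR1C3 stayed past 1.5-fold under the 5 alternatives that gave them another value, GPX3 under 6 of 6 and TXNRD2 under 4 of 5.

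AKR1C1, a close relative of AKR1C3, had intensities of 471, 454 and 548 and log2 ratios of −0.24 and −0.02 by its brighter probe. Its other probe had intensities of 151, 202 and 223 and ratios of 0.23 and 0.33, and lay in a disturbed area of the 100 μM CA array. AKR1C1 and AKR1C2 are nearly identical in sequence, and whether an AKR1C1 probe also captured AKR1C2 RNA was not tested. AKR1B1 and AKR1B10, aldose reductase and its relative, had ratios of 0.11 and 0.07 at 50 μM CA and of 0.15 and 0.23 at 100 μM CA, and the second AKR1B10 probe gave 0.03 and 0.22. ABCC3, an exporter of glucuronides and other conjugates, had ratios of −0.22 and −0.18 (brighter probe), with −0.12 and −0.12 from the other. CBR1, a carbonyl reductase, had intensities of 2871, 2576 and 2905, and ME1, malic enzyme, which supplies NADPH, of 853, 959 and 974. OSGIN1, an NRF2 target linked to growth inhibition, had intensities of 55.2, 82.9 and 65.1 and ratios of 0.40 and 0.00 on a dim probe, and its 50 μM CA ratio was 0.11 with normexp background correction.

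Between the doses, 100 μM CA against 50 μM CA, none of the 42 genes was at least 1.5-fold higher, against 1.4% of 14666 named genes, and EPHX1 was 1.73-fold lower (log2 ratio −0.79), the 1 member past that size, against 1.53% of named genes. None was changed 2-fold, against 0.586% higher and 0.0886% lower. The median ratio of the 42 genes was 0.03, beside 0.00 over all named genes. By the brightest probe of each gene, the members farthest above 0 were AKR1C3 (0.47), NFE2L2 (0.44) and BLVRB (0.30). Those farthest below it after EPHX1 were OSGIN1 (−0.40) and GPX3 (−0.39), while the second GSR probe had −0.49.

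A further 91 genes of the same processes were examined as lists, of which 80 could be measured at 50 μM CA. Of these, 3 were at least 1.5-fold higher (3.75%, near the 4.15% of all named genes) and 1 was lower (1.25%, against 2.17% of all named genes). At 100 μM CA 81 could be measured, of which 1 was higher and 1 lower (1.23% each). The shares of all named genes there were 1.65% and 1.54%. DUOX2, which makes hydrogen peroxide at the cell surface, had intensities of 285, 184 and 216 and ratios of −0.82 and −0.64, and was past 1.5-fold lower at both doses, with −0.79 and −0.57 under normexp.

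GSTM2, a glutathione S-transferase, and CYBA, a membrane subunit of NADPH oxidases, were past 1.5-fold higher at 50 μM CA. GSTM2 had log2 ratios of 0.65 and 0.26 and, by a second probe, of 1.06 and 0.59. Its ratio at 50 μM CA was within 1.5-fold under quantile normalization (0.58), in the log2 table of the authors (0.58) and under normexp (0.46), and the GSTM genes share much of their sequence. CYBA had intensities of 1518, 2714 and 2288 and ratios of 0.65 and 0.35, and was past 1.5-fold at 50 μM CA under each alternative run. Of the 12 further genes of NRF2 control none was past 1.5-fold, and PGAM5, a mitochondrial phosphatase that binds KEAP1, differed most (0.41 and 0.27). The PGAM5 probe was dim, with intensities of 26.2, 39.7 and 37.3, and its ratios under the alternatives were not examined. Of 12 measured genes of glutathione turnover and cystine supply none was past 1.5-fold, and SLC3A2, the partner of SLC7A11 in the cystine transporter, differed most (0.45 and 0.24) while SLC7A11 went the other way. Among 19 measured genes of further thiol and peroxide handling none was past 1.5-fold, with GPX7 (0.41) and TXNDC17 (−0.29) the farthest from 0 at 50 μM CA and 100 μM CA, respectively. Among the glutathione S-transferases, GSTT2, whose probe lay in a disturbed area, was the farthest from 0 at 100 μM CA (−0.43).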

How the data were processed

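Total RNA from Huh7 cells of 3 groups, untreated, 50 μM CA and 100 μM CA, was amplified by the authors and labelled with Cy3, and each of the 3 groups was run on 1 Agilent whole human genome array. The authors scanned the slide and extracted spot values with Feature Extraction 11.0.1.1, per the submitters' processing notes, and the deposited intensity (processed signal, background subtracted) is not scaled between arrays. A deposited table with log2 values for each probe served as an alternative. Its normalization is not given in the sources used here, but its columns share their quartiles.

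Control spots and spots with outlier flags (429, 569 and 596 gene spots) were left out. From each log2 signal the array's 75th percentile was subtracted, values were averaged over the spots of a probe, and a probe was well above background if at least 50% of its spots were. The brightest probe above background on both arrays compared stood for the gene. RefSeq accessions named 25771 of 34127 probes through a GRCh38.p14 gene table. The array annotation is of another build, so no probe coordinates are given. Precision is limited by the number of arrays, 1 per group. Folds of 1.5 and 2 were rules of size, without a test.

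The 44 genes, the 91 further genes and all markers were chosen with earlier results of these data known. Described in full were the regulators, the usual NRF2 targets, members past 1.5-fold, members whose probes disagreed by 1.5-fold and the 5 brightest in untreated cells. From the further lists, genes past 1.5-fold in 1 direction at both doses or with the largest change of their list were named, except for 1 that is not reported here. Fibroblast markers (6 genes) had 4, 4 and 5 well above background on the untreated, 50 μM CA and 100 μM CA arrays. Disturbed areas were windows of 17 rows by 7 columns in which at least 5 spots, and 25% of those of probes dim on the other arrays, were at least 4-fold brighter.

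The alternatives were quantile normalization, cyclic loess, median centring, normexp background correction (offset 50, on median spot intensities), the log2 table, a filter on 1 array, no filter, the mean over probes, and leaving out saturated spots or disturbed areas. Only the choice of the brightest probe and the fold calls were tested on simulated data. These were made from the scaled probe values, with noise near the spread between spots and a rise well past 1.5-fold. Recovery was thus nearly fixed in advance, and the other steps were not tested. Python 3.11.15, numpy 2.4.6, pandas 2.3.3, R 4.3.3 and limma 3.58.1 were used.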

Additional observations from a re-analysis of the deposited data

How the results depend on the processing

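With a threshold of 2-fold in place of 1.5-fold, the counts of members higher at 50 μM CA, lower at 50 μM CA and lower at 100 μM CA against 50 μM CA were each 0, from 3, 1 and 1, by construction of the stricter threshold. The median of the 42 genes at 50 μM CA and 100 μM CA, −0.03 and −0.02, became 0.02 and 0.04 under quantile normalization, 0.01 and 0.02 after cyclic loess, 0.03 and 0.04 in the log2 table of the authors and 0.01 and 0.00 with the mean over probes, so that its sign depended on the scaling and the gene summary. Of the 42 genes, 31 kept the sign of their ratio under every alternative run at 50 μM CA, 28 at 100 μM CA and 32 between the doses. Over 688 recomputed ratios of the 23 members described in full, 328 were identical to the value given, 272 moved by less than the spread between spots and 88 by more. The filter on 1 array, no filter and leaving out saturated spots could not change these ratios, and they add nothing to the kept signs. The mean over probes could change only members with several probes above background. Leaving out disturbed areas could change only members with spots there. PRDX6 could not be measured under normexp, where its spot on the untreated array carried a background flag. Among the 91 further genes, whose alternatives were added after the data had been seen, normexp left 1 higher at 50 μM CA, from 3. No paired analysis was possible because each group has 1 array and no replicate numbers, and for the same reason no array could be left out. Dim probes such as those of TXNRD2, OSGIN1 and NFE2L2 moved under normexp, which also added an offset and used median spot intensities, and the cause was not tested.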
